A study of Homo sapiens with 12 samples.

Results

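The comparison described here sets relapses of HEL cells after 3 drugs against untreated cells. HEL is an established human acute myeloid leukemia (AML) cell line of erythroid and megakaryocytic character that carries an activated JAK2 kinase. The comparison takes 6 of the 12 RNA-sequencing libraries of the series, chosen by their treatment labels, and describes the changes across all genes. The untreated group (NT, n = 2) was cultured with the solvent dimethyl sulfoxide, and the relapse group (Doxo+Cyta+DAC, n = 4, libraries 30 to 33) received 1.8 µM doxorubicin, 6 µM cytarabine and 0.1 µM decitabine. All cells carried a lentiviral barcode library. The drugs were present for 72 to 74 hours, dead cells were removed, and the survivors regrew for about 30 days. The remaining 6 libraries are relapses without decitabine, after doxorubicin alone (Doxo, n = 3) or doxorubicin with cytarabine (Doxo+Cyta, n = 3), and serve here for the estimate of the spread and for side-by-side values. A relapse culture descends from the cells that survived, so a change of expression within cells and a change in which clones made up the culture cannot be told apart, nor can less RNA per cell and fewer cells of a kind. Decitabine alone was not part of these libraries.

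Doxorubicin is an anthracycline that traps topoisomerase II on DNA, and cytarabine is a nucleoside analog that stops replication forks. Decitabine is a cytidine analog that is built into DNA and traps the maintenance methyltransferase DNMT1, so that methylation is lost as cells divide. Hypomethylating agents are known in leukemia for reopening silenced promoters and for changing the state of surviving cells rather than killing them at once. The question of the comparison was how far the cells that return after the triple combination differ in their transcriptome from cells that were never treated.

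Total counts were 15677411 to 18426370 per library in NT and 12763051 to 19096613 in Doxo+Cyta+DAC. At these depths 3 counts, the limit taken for a value of 0, corresponded to 0.154 to 0.238 CPM, the count of a gene relative to the scaled total of its library. Of 26476 genes kept, 14159 had enough counts to be tested. Set against the label, all 24 genes of a list of HEL markers had enough counts to be tested, with summed levels of 12704 to 13658 CPM in NT and 9645 to 12575 CPM in Doxo+Cyta+DAC, and 3 of them rose (0 without NT replicate 2) and 9 fell at an adjusted p under 0.05. Of 30 markers of other cell types 9 were tested, 4 were at 0 counts in all 6 libraries, and the untested members in the table held at most 20 counts in any of them. The summed level of those markers was 231 to 241 CPM in NT and 193 to 224 CPM in Doxo+Cyta+DAC, and 0 of the 9 rose (1 without library 31) and 3 fell.

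Relapse after the triple combination went with changes across the whole transcriptome. A total of 913 genes (6.45% of those tested) differed more than 3-fold from NT at an adjusted p under 0.01, of which 338 (2.39%) were higher and 575 (4.06%) were lower. Without a threshold on the fold change, 6898 genes (48.7%) passed an adjusted p under 0.05, with 3534 higher (25%) and 3364 lower (23.8%). The median log2 fold change over all tested genes was 0.02. The lowest Doxo+Cyta+DAC library lay above both NT libraries in all 338 genes that rose, and the highest lay below both in 574 of the 575 that fell. The 4 libraries also stood apart from all 8 others of the series in 239 of the 338 (70.7%) and 490 of the 575 (85.2%). This held for 21.5% of all tested genes upward, 20.1% downward and 41.6% in either direction, and no overlap with NT alone for 34.2% and 32.9%. The 338 and 575 genes were called on these same 4 libraries against NT, and NT is among the 8 others. Their larger shares follow in part from that choice and are no independent evidence. Set against the mean of the Doxo and Doxo+Cyta relapses, a comparison that uses no NT library but the same 4 relapses, 1231 genes (8.69%) passed the fold and p thresholds, 452 of them higher (3.19%) and 779 lower (5.5%), and 9243 (65.3%) passed an adjusted p under 0.05. The number of genes past 3-fold was 571 (150 higher, 421 lower) without NT replicate 1 and 679 (198 higher, 481 lower) without NT replicate 2. In both fits the lone NT library was assumed to vary like the other groups.

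**Figure D1:**
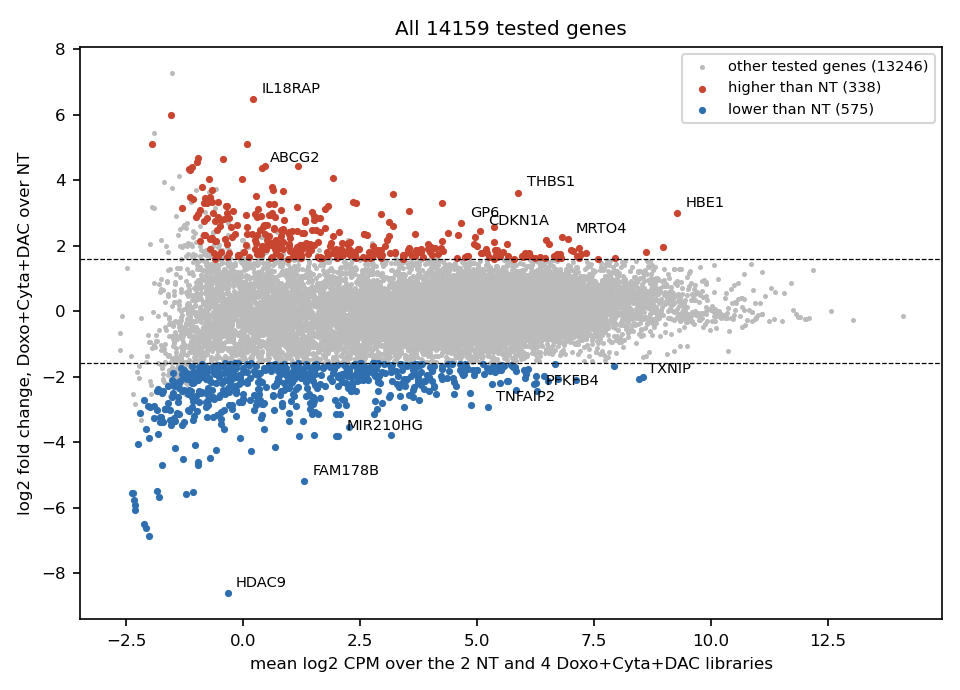
Each point is 1 of the 14159 tested genes, with its mean level over the 2 NT and 4 Doxo+Cyta+DAC libraries (log2 CPM) on the horizontal axis and its log2 fold change in Doxo+Cyta+DAC over NT on the vertical axis. Dashed lines mark a 3-fold change; the 338 red and 575 blue genes also had an adjusted p under 0.01, and the decreases reach farther than the increases, down to -8.61 for HDAC9.

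Genes that build ribosomes rose almost throughout, with a larger share than in any other list described here. Of 80 tested genes for ribosome biogenesis and the nucleolus, 72 rose and 0 fell at an adjusted p under 0.05, where 25% of all tested genes rose, and 10 of them rose more than 3-fold. Their median log2 fold change was 1.08, which compares with 0.02 over all tested genes. MRTO4, a ribosome assembly factor, was at 44.3 and 44.1 CPM in NT and 230.5, 211, 199 and 177 CPM in Doxo+Cyta+DAC. All 4 relapses stood clear of the 28.3 to 65.5 CPM in Doxo and 24.6 to 53.4 CPM in Doxo+Cyta. They stood clear of NT too, which was a condition for naming this gene (log2 fold change 2.21, SE 0.35, adjusted p = 0.000208). UTP20, a component of the particle that processes the small-subunit RNA, was at 20.3 and 18.4 CPM in NT and 85.5, 92.2, 82.7 and 62.7 CPM in Doxo+Cyta+DAC (log2 fold change 2.06, SE 0.26, adjusted p = 4.02e-05). Against the chemotherapy relapses, which were lower than NT for UTP20, its log2 difference was 3.11, SE 0.19, adjusted p = 2.7e-08. EBNA1BP2 and RRS1, factors of large-subunit assembly, rose by 1.83 and 1.86 on the log2 scale, with 56.1 to 58.1 CPM in NT and 177 to 219 CPM in Doxo+Cyta+DAC for the former. GPATCH4, a nucleolar protein, rose from 32.1 and 33.3 CPM to 163, 153, 139.7 and 136 CPM. The genes of the ribosomal proteins themselves did not share this pattern, since of 84 RPL and RPS genes 5 rose and 3 fell, with a median of -0.13.

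Promoters of these genes are shown because they moved together and because MYC, the transcription factor known for driving ribosome production, binds the E-box CACGTG. MYC itself was at 275 and 283 CPM in NT and 504, 455, 512 and 540.1 CPM in Doxo+Cyta+DAC (log2 fold change 0.85, SE 0.13, adjusted p = 0.000156). RefSeq windows of 300 bases (250 before to 50 after a gene start, GRCh38.p14) were matched by symbol for 68 of the 80 genes. In 24 of these 68 (35.3%) a window held CACGTG, which reads the same on both strands. It was held by 12.3% of the 11014 tested genes with a window and by 7.26% of all 35116 windows. As the tested genes with a window were only 77.8% of those tested, a check of the list against all tested genes is void, and the shares stand as a description. The windows of MRTO4 (chr1:19251555-19251854, plus strand) and UTP20 (chr12:101279855-101280154, plus strand) each held it 1 time, in capitals here, and that of GPATCH4 held none. A match is a string of letters in this window and no evidence of binding.
MRTO4: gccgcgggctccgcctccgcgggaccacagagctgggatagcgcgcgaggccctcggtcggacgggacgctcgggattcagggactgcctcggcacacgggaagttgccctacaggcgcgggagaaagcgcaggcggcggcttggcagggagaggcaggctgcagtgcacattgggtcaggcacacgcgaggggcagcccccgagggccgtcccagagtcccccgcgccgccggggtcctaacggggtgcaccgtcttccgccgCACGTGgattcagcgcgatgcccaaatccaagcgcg
UTP20: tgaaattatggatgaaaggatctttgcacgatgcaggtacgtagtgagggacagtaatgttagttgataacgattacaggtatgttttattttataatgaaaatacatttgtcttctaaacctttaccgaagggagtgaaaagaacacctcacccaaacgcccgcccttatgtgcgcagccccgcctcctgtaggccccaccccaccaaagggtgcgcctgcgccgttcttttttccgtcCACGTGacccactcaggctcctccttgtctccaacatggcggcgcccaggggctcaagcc

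Genes for DNA replication rose as a group as well. Of 56 genes for licensing and the replication fork, 37 rose and 2 fell, with 0.64 as the median log2 fold change, and 1 of them, GINS4, passed 3-fold. GINS4, a subunit of the replicative helicase, was at 18.5 and 22.5 CPM in NT and 69.4, 72, 79.1 and 64.2 CPM in Doxo+Cyta+DAC (log2 fold change 1.80, SE 0.24, adjusted p = 5.13e-05). CDC6, which loads that helicase onto origins, was at 51.6 and 52.2 CPM in NT and 141, 157, 159.9 and 139 CPM in Doxo+Cyta+DAC (1.52, adjusted p = 3.31e-05). In neither gene did the groups overlap, and both were also above every Doxo and Doxo+Cyta library. TIPIN and CLSPN, which stabilize stalled forks, rose by 1.48 and 1.43 on the log2 scale. The polymerase genes POLA1 and POLE rose by 1.11 and 0.86, the latter with an adjusted p of 0.00408 that was 0.0513 without NT replicate 1. Among 28 tested regulators of the G1/S transition 14 rose (9 without NT replicate 1) and 4 fell. E2F2, an activator of S-phase genes, was at 48.7 and 54.5 CPM in NT and 141, 123, 142 and 134 CPM in Doxo+Cyta+DAC (log2 fold change 1.39, SE 0.17, adjusted p = 3.47e-05), whereas E2F1 (log2 fold change 0.84, adjusted p = 0.0354) and the cyclin gene CCNE1 (1.05, adjusted p = 0.04) lost the call without either NT library, without library 30 or 32 and under upper-quartile scaling, and CCNE1 also without library 33 (adjusted p 0.0617 to 0.192 for CCNE1 and 0.0625 to 0.155 for E2F1). The pocket-protein genes moved apart, with RBL1 at 1.35 and RBL2, which holds cells in quiescence, at -1.50 (95.2 to 103 CPM in NT and 31.1 to 41 CPM in Doxo+Cyta+DAC).

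Mitotic genes did not follow the replication genes. Of 54 genes for mitosis and the spindle, 5 rose and 18 fell, with a median of -0.21. BUB1, a kinase of the spindle checkpoint, was at 728 and 746 CPM in NT and 256, 265, 283 and 336 CPM in Doxo+Cyta+DAC (log2 fold change -1.37, SE 0.14, adjusted p = 6.2e-06), and NEK2, a centrosome kinase, was at 68.9 and 65.2 CPM in NT and 23.7, 26.8, 21.2 and 28 CPM in Doxo+Cyta+DAC (-1.43, adjusted p = 8.28e-05). CDC25C and NUF2 fell by 0.90 and 0.67 on the log2 scale. None of the 54 changed more than 3-fold. Without NT replicate 1 the mitotic genes that fell numbered 8, and without NT replicate 2 they numbered 6, and the 5 that rose were 0 in both fits and 2 to 3 without library 30, 31 or 33. The replication genes that rose numbered 24 and 23 in the same fits, and the ribosome biogenesis genes 67 and 69.

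Nucleotide synthesis and mitochondrial energy genes also rose in part. Of 26 tested genes of purine and pyrimidine synthesis 19 rose and 1 fell, with a median of 0.59. CTPS1, which makes CTP, was at 63.6 and 65.4 CPM in NT and 205, 207, 224 and 191 CPM in Doxo+Cyta+DAC (log2 fold change 1.68, SE 0.33, adjusted p = 0.00097), and PFAS, an enzyme of purine synthesis, was at 43.5 and 53.5 CPM in NT and 152, 146, 155 and 125 CPM in Doxo+Cyta+DAC (1.58, adjusted p = 0.00444, and 0.0591 without NT replicate 1). SLC19A1, the carrier of reduced folate, which nucleotide synthesis needs, rose from 35.5 and 43.7 CPM to 204, 203, 202 and 156 CPM (log2 fold change 2.27, SE 0.44, adjusted p = 0.000888). Of 77 subunits of oxidative phosphorylation 41 rose and 1 fell (0 to 2 when a library was left out), but by less, with a median of 0.41 and none past 3-fold. ATP5G1, a subunit of ATP synthase, was at 84.5 and 74.6 CPM in NT and 163, 157, 165 and 149 CPM in Doxo+Cyta+DAC (0.99, adjusted p = 0.00171), and NDUFA12, of complex I, was at 41.2 and 37.8 CPM in NT and 80.8, 77.3, 71.3 and 71 CPM in Doxo+Cyta+DAC. The number of subunits that rose depended on the untreated library, with 26 without NT replicate 1 and 9 without NT replicate 2. Among 31 tested genes of the amino acid response 15 rose (9 without NT replicate 1) and 3 fell. ATF5, a transcription factor of that response, was at 16 and 16.9 CPM in NT and 57.4, 69.2, 53.4 and 42.6 CPM in Doxo+Cyta+DAC (1.76, adjusted p = 3.33e-05), and PSAT1 of serine synthesis and the cystine carrier SLC7A11 rose by 1.45 and 1.47. VLDLR, a lipoprotein receptor, went the other way, from 9.11 and 6.73 CPM to 1.1, 0.826, 1.05 and 0.555 CPM.

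The response to low oxygen moved in the opposite direction. Cells hold this program in check by degrading the factor HIF1A in the presence of oxygen, and when the factor is stable it binds the core sequence ACGTG near genes for glycolysis and adaptation. Of 49 tested genes of the hypoxia response and glycolysis 27 fell and 8 rose (4 and 5 without NT replicates 1 and 2), and 13 fell more than 3-fold, with a median log2 fold change of -0.60. PFKFB4, which sets the level of a glycolytic activator, was at 242 and 245 CPM in NT and 34.2, 41.4, 46.7 and 56.6 CPM in Doxo+Cyta+DAC (log2 fold change -2.45, SE 0.16, adjusted p = 3.3e-07). NDRG1, a stress-response gene, was at 91.3 and 92.2 CPM in NT and 14.9, 20.1, 13.7 and 16.2 CPM in Doxo+Cyta+DAC (-2.50, adjusted p = 3.27e-06), and ANKRD37, an ankyrin-repeat gene induced in hypoxia, was at 11.3 and 10.3 CPM in NT and 0.797, 1.03, 1.21 and 1.11 CPM in Doxo+Cyta+DAC (-3.37, adjusted p = 1.55e-06). In these 3 genes the 4 relapses lay below NT and below all 6 chemotherapy relapses. Standing apart from NT was a condition for naming PFKFB4 and NDRG1. BNIP3 and BNIP3L, which direct the removal of mitochondria, fell by 1.26 and 0.90 on the log2 scale, and VEGFA, a growth factor for vessels, was at 86.2 and 88.2 CPM in NT and 33.6, 43.5, 63.1 and 68.1 CPM in Doxo+Cyta+DAC (-0.74, adjusted p = 0.0125), a call lost without either NT library (0.0617 and 0.0717). Not every enzyme of glycolysis fell: LDHA, lactate dehydrogenase, was at 1331 and 1256 CPM in NT and 1433, 1591, 1491 and 1759 CPM in Doxo+Cyta+DAC (0.28, adjusted p = 0.0337). That call was lost under upper-quartile scaling, without a filter, with at least 10 counts in every sample and without either NT library, library 31 or library 33 (adjusted p 0.0603 to 0.212).

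The locus of miR-210, a microRNA known as a marker of hypoxia, belonged to this group. Its host transcript MIR210HG fell from 24.9 and 21.3 CPM to 0.98, 1.79, 1.73 and 2.06 CPM (log2 fold change -3.82, SE 0.21, adjusted p = 1.83e-07), while the chemotherapy relapses were at 12.1 to 15.7 CPM in Doxo and 21.5 to 27.5 CPM in Doxo+Cyta. Fragments on the hairpin itself (MIR210, chr11:568089-568198, minus strand, within the span of MIR210HG) were at 1.03 and 1.37 CPM in NT and 0, 0, 0.0525 and 0 CPM in Doxo+Cyta+DAC. Pooled over libraries, the level in NT was 74.2 times (95% counting interval 12.6 to 2999.9) that in Doxo+Cyta+DAC. These fragments come from a library of long RNA counted without strand, so they count the hairpin or its host and not the mature microRNA. The mature sequence (RefSeq, chr11:568112-568133) is given for reference, with its seed, bases 2 to 8, in capitals.
hsa-miR-210-3p: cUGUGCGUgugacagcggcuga

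The promoters of MIR210HG (chr11:568408-568707, minus strand) and ANKRD37 (chr4:185396591-185396890, plus strand) are shown for the core ACGTG, searched on both strands and capitalized. The ANKRD37 window held 3 matches, 2 of which overlap within CACGTG, and the MIR210HG window held 1. That of PFKFB4 held none. A window with ACGTG was found for 30 of the 43 hypoxia and glycolysis genes with a window (69.8%), for 18 of the 22 such genes that fell (81.8%) and for 5 of the 8 that rose (62.5%). Of the 11014 tested genes with a window 31.9% held it, as did 21.4% of all windows. The search for ACGTG also counts every CACGTG. Windows of the list held more CpG (median 30 against 25) and more GC (69.3% against 64.3%) than those of the tested genes, and ACGTG contains CG. The list is made of genes of the hypoxia response, so the shares stand as a description and no difference was tested. A match is no evidence of binding.
ANKRD37: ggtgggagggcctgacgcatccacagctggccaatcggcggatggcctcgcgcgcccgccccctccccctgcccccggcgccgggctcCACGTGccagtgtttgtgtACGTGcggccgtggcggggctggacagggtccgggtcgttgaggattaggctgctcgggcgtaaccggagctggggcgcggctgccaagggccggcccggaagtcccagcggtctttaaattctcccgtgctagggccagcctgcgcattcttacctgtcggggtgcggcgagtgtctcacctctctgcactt
MIR210HG: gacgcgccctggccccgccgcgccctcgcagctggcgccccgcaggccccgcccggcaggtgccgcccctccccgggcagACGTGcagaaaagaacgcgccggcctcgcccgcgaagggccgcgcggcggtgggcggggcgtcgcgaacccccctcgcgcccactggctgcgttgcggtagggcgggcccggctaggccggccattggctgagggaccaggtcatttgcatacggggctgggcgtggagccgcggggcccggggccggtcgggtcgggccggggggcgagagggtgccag

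Among erythroid and megakaryocytic genes the globins and platelet genes moved both ways, and more genes of heme synthesis, of the red cell membrane and of lineage transcription factors fell than rose. Among 9 tested globin genes 3 rose (1 without NT replicate 2) and 2 fell. HBE1, the embryonic beta-like globin, was at 177 and 151 CPM in NT and 1195, 695, 1239.9 and 2067 CPM in Doxo+Cyta+DAC (log2 fold change 2.99, SE 0.33, adjusted p = 1.4e-05), and the chemotherapy relapses also stood above NT, at 1190.5 to 1239 CPM in Doxo and 461 to 665 CPM in Doxo+Cyta. HBB, the adult beta globin, went from 457 and 403 CPM to 132, 137, 123 and 219 CPM (-1.49, adjusted p = 3.85e-05), below every other library. HBG2 and HBG1, fetal globins whose near-identical sequences leave their counts uncertain, had log2 fold changes of -0.24, adjusted p = 0.23, and -0.16, adjusted p = 0.608. The alpha globin HBA2 (1.37, adjusted p = 0.0132) is uncertain for the same reason and lost its call without either NT library. Genes of the red cell membrane and surface had 3 higher and 8 lower of 26 tested, and 1 and 4 without NT replicate 2. Of 15 genes of heme synthesis 7 fell and 1 rose (0 without either NT library, library 31 or library 32): CPOX, which acts late in the pathway, was at 359 and 356 CPM in NT and 105, 122, 118 and 147 CPM in Doxo+Cyta+DAC (log2 fold change -1.54, SE 0.20, adjusted p = 3.68e-05), and ALAD and FECH fell by 0.91 and 0.77 on the log2 scale. The water channel AQP1 of the red cell membrane fell from 22.6 and 21.4 CPM to 2.02, 1.65, 1.31 and 1.27 CPM (-3.80, adjusted p = 1.55e-06), and TMOD1, which caps actin in the membrane skeleton, fell by 2.10.

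Platelet genes split evenly, with 8 higher and 8 lower of 26 tested (30.8% each, beside 25% and 23.8% of all tested genes). GP6, the collagen receptor of platelets, rose from 6.38 and 8.34 CPM to 44.7, 52.2, 55.4 and 36.8 CPM (log2 fold change 2.69, SE 0.42, adjusted p = 0.000163). GP9, a subunit of the receptor for von Willebrand factor, fell from 139.8 and 135 CPM to 23.1, 43.4, 31.2 and 28.6 CPM (log2 fold change -2.12, SE 0.22, adjusted p = 7.67e-06). THBS1, thrombospondin of platelet granules, was at 9.68 and 15.4 CPM in NT and 67.8, 321, 103 and 123 CPM in Doxo+Cyta+DAC (3.62, adjusted p = 0.000213), with library 31 more than 2-fold above the next. Of 29 transcription factors of these lineages 12 fell and 3 rose. FLI1, a factor of megakaryocytes, was at 351 and 359 CPM in NT and 166, 153, 147 and 149 CPM in Doxo+Cyta+DAC (-1.21, adjusted p = 4.3e-05), GATA2 was at 1062 and 1062 CPM in NT and 458, 525, 551 and 499.9 CPM in Doxo+Cyta+DAC (-1.06, adjusted p = 6.15e-06), and GATA1 fell by 0.62. ERG rose from 7.87 and 7.09 CPM to 31.6, 17.5, 19.5 and 19.2 CPM and CEBPA, a factor of granulocytes, from 1.44 and 1.67 CPM to 6.68, 5.16, 3.36 and 5.47 CPM.

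More regulators of stem cells and more HOX genes fell than rose, although many did not pass the test. Of 29 tested stem-cell regulators 11 fell, 7 of them more than 3-fold, 3 rose and 15 did not pass, with a median log2 fold change of -0.32. Of 27 tested genes that the study names, several of them stem-cell regulators, 8 rose (4 and 5 without NT replicates 1 and 2) and 12 fell, but as the study chose them on these samples their direction is no independent evidence. The same limit holds for the stem-cell regulators as far as the study names them, as it does TXNIP, EGR1 and CBX7. TXNIP, a brake on glucose uptake, was at 983 and 882 CPM in NT and 165, 239.9, 202 and 279.7 CPM in Doxo+Cyta+DAC (log2 fold change -2.07, SE 0.20, adjusted p = 4.64e-06), and EGR1, an early-response factor, was at 259 and 235 CPM in NT and 45, 60.2, 60.6 and 57.4 CPM in Doxo+Cyta+DAC (-2.15, adjusted p = 3.1e-05). CBX7, of Polycomb complexes, was at 5.71 and 4.65 CPM in NT and 0.674, 0.963, 1.1 and 1.19 CPM in Doxo+Cyta+DAC, and LGR4, a receptor that strengthens Wnt signals, was at 8.29 and 10.4 CPM in NT and 1.04, 1.79, 1.21 and 1.58 CPM in Doxo+Cyta+DAC. The kinase inhibitor CDKN1C had 0 counts in all 4 relapses and 0.823 and 0.179 CPM in NT, of which the second is itself 3 counts, so that no size is given for its difference. CDKN1B fell by 0.95 (57.6 to 63.6 CPM in NT and 29.6 to 35.3 CPM in Doxo+Cyta+DAC), and CD34, a surface marker of progenitors, did not pass (0.56, adjusted p = 0.224). Of 24 tested HOX genes 11 fell, 1 rose (0 without NT replicate 2) and 12 did not pass. HOXA3 was at 1.44 and 1.61 CPM in NT and 0.245, 0.344, 0.0525 and 0.0792 CPM in Doxo+Cyta+DAC, and HOXA13 was at 1.39 and 1.01 CPM in NT and 0.123, 0.138, 0.262 and 0.238 CPM in Doxo+Cyta+DAC, with no overlap of the groups in either. The HOX genes that fell numbered 4 without NT replicate 1.

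Among the genes that write and remove DNA methylation no common direction was found, with 5 of 21 tested higher (3 without NT replicate 1) and 6 lower. DNMT1, the target of decitabine, was at 636 and 718 CPM in NT and 1042, 1172, 1014 and 913 CPM in Doxo+Cyta+DAC (0.61, adjusted p = 0.011, and 0.114 without NT replicate 1). UHRF1, which guides DNMT1 to newly made DNA, was at 45.1 and 49 CPM in NT and 143, 145, 142 and 125 CPM in Doxo+Cyta+DAC (log2 fold change 1.56, SE 0.30, adjusted p = 0.000826). DNMT3A, which sets new methylation, was at 36.4 and 34.1 CPM in NT and 20.6, 22.6, 20.7 and 17.6 CPM in Doxo+Cyta+DAC (-0.79, adjusted p = 0.000192), and DNMT3B did not pass (0.25, adjusted p = 0.227). On the side of removal, the dioxygenase TET1 fell from 5.76 and 6.56 CPM to 1.23, 1.1, 1.36 and 1.19 CPM (log2 fold change -2.32, SE 0.27, adjusted p = 2.01e-05), and the glycosylase TDG rose from 40.1 and 45.5 CPM to 109, 116, 132 and 119 CPM (log2 fold change 1.48, SE 0.12, adjusted p = 1.59e-06). IDH2, whose product TET enzymes need, was at 336 and 325 CPM in NT and 130.3, 132, 151 and 149 CPM in Doxo+Cyta+DAC. The 3 methyltransferases and, of the drug genes that follow, DCK, SLC29A1 and TOP2A were chosen after their values were seen, as were MYC, GATA1, LDHA, VEGFA, HBG1 and HBG2. DCK, the kinase that activates cytarabine and decitabine, was at 61.1 and 68.8 CPM in NT and 35.3, 33.9, 40.2 and 39.9 CPM in Doxo+Cyta+DAC (-0.80, adjusted p = 0.00184), and SLC29A1, a carrier of both nucleosides, was at 108 and 104 CPM in NT and 194, 162, 201 and 157 CPM in Doxo+Cyta+DAC (0.75, adjusted p = 0.000531). SAMHD1, which breaks down nucleoside triphosphates, was at 2.68 and 4.05 CPM in NT and 7.05, 6.67, 8.08 and 6.5 CPM in Doxo+Cyta+DAC (1.08, adjusted p = 0.0026, and 0.0661 without NT replicate 1). TOP2A, a target of doxorubicin, was at 812 and 922 CPM in NT and 594, 576, 596 and 691 CPM in Doxo+Cyta+DAC (-0.50, adjusted p = 0.0147, and 0.140 without NT replicate 2). Of 28 tested genes of drug uptake, metabolism and targets 10 rose (6 without NT replicate 1) and 5 fell (3 without NT replicate 2).

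HDAC9, a class II histone deacetylase on chromosome 7, had the most negative log2 fold change of all tested genes. It was at 19.6 and 23.8 CPM in NT and 0, 0, 0.157 and 0 CPM in Doxo+Cyta+DAC, with 3 counts in library 32 and 0 in the other 3, and pooled over libraries the level in NT was 449 times (95% counting interval 153 to 2182) that in Doxo+Cyta+DAC. It was low in the chemotherapy relapses too, at 0 to 0.947 CPM in Doxo and 0.124 to 1.65 CPM in Doxo+Cyta. Against them the log2 difference was -3.31, SE 1.16, adjusted p = 0.0217. Of 17 histone deacetylases and sirtuins 7 fell and 4 rose (2 without NT replicate 2), with HDAC5 at 129 and 122 CPM in NT and 49, 51, 45.3 and 49.3 CPM in Doxo+Cyta+DAC (-1.37, adjusted p = 1.75e-05) and HDAC1 at 133 and 129.8 CPM in NT and 298, 235, 269 and 278 CPM in Doxo+Cyta+DAC (1.04, adjusted p = 9.34e-06). Polycomb genes had 7 higher and 8 lower of 31, and imprinted genes 4 and 5 of 26 tested, shares at or below those of all tested genes for the increases. Without NT replicates 1 and 2 the Polycomb genes that rose numbered 2 and 1, and the imprinted genes 0 and 1 (2 without library 30). The Polycomb genes that fell numbered 5 without NT replicate 2. SLC22A18, an imprinted transporter on chromosome 11, fell from 6.38 and 6.26 CPM to 0.797, 1.03, 1.26 and 1.27 CPM (-2.53, adjusted p = 1.77e-06), and DLK1 fell from 11.3 and 10.8 CPM to 4.66, 3.1, 3.25 and 1.82 CPM. Cancer-testis and germline genes, a class often silenced by promoter methylation, were mostly below the limit of testing, with 19 of 77 in the table tested. Of these 4 were higher (21.1%) and 3 lower (15.8%, and 1 gene without library 31). Both shares lay below the 25% and 23.8% of all tested genes. MAGEA1 was at 48.2 and 50.9 CPM in NT and 152, 136, 187 and 185 CPM in Doxo+Cyta+DAC (1.74, adjusted p = 0.000146), and TEX14 and TEX15 rose by 2.46 and 1.80 on the log2 scale. The chemotherapy relapses held MAGEA1 at 63.8 to 101 CPM in Doxo and 36.7 to 73.8 CPM in Doxo+Cyta. SYCP2 fell from 1.7 and 1.31 CPM to 0.184, 0.482, 0.577 and 0.951 CPM. The relapses differed in this list: its median log2 difference from NT was 0.23, 0.14, -0.69 and 0.20 in libraries 30 to 33.

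**Figure D2:**
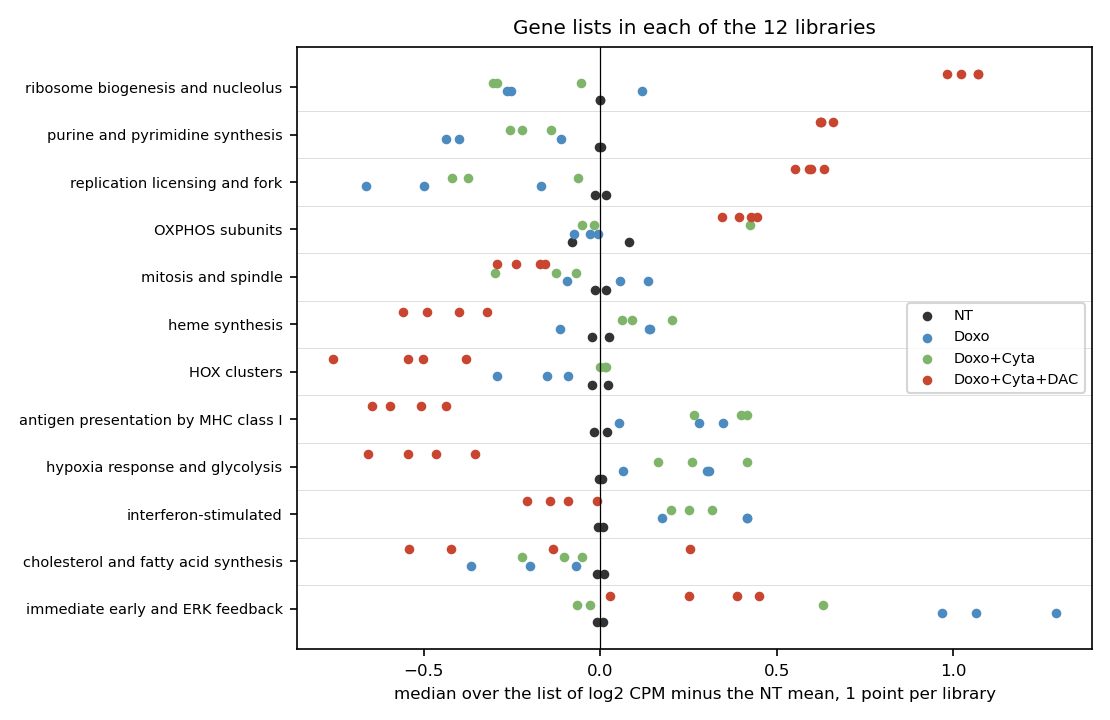
Each point is 1 of the 12 libraries, placed at the median over a gene list of its log2 CPM minus the NT mean. The 4 Doxo+Cyta+DAC libraries lie together between 0.98 and 1.07 for ribosome biogenesis and between -0.66 and -0.36 for the hypoxia response, and spread from -0.54 to 0.25 for cholesterol synthesis.

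Genes that present antigen on MHC class I were lower. Of 20 tested genes 12 fell and 4 rose (2 without either NT library), with a median log2 fold change of -0.58. HLA-E was at 746 and 684 CPM in NT and 255, 318, 258 and 254 CPM in Doxo+Cyta+DAC (-1.40, adjusted p = 1.99e-05). Every triple-drug relapse lay below NT and every chemotherapy relapse above it, at 812 to 1316 CPM in Doxo and 1049 to 1222 CPM in Doxo+Cyta. HLA-F fell by 1.56. HLA genes have copies on alternate contigs and close paralogs, which leaves their levels uncertain. CD74, the invariant chain of MHC class II, fell from 6.64 and 6.73 CPM to 0.368, 0.275, 0.262 and 0.475 CPM (log2 fold change -4.28, SE 0.38, adjusted p = 2.69e-06). Interferon-stimulated genes had 19 lower (28.4%, near the 23.8% of all tested genes) and 10 higher (5 without NT replicate 1) of 67. Among them the RNA sensors IFIH1 and DHX58 were at 31.8 and 34.1 CPM in NT and 10.0, 11.4, 10.1 and 13.9 CPM in Doxo+Cyta+DAC and at 14.5 and 15.3 CPM in NT and 5.52, 3.99, 4.88 and 4.59 CPM in Doxo+Cyta+DAC. GBP5 (1.76, adjusted p = 0.0136) rose, but lost its call without NT replicate 1 (0.167).

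Receptors and signaling genes held several of the largest increases. Of 28 tested interleukin and chemokine receptors 9 rose (32.1%), 5 of them more than 3-fold, and 7 fell (25%), 0 of them past 3-fold. Of all tested genes 25% rose and 23.8% fell. Against the chemotherapy relapses 8 of these receptors were higher and 11 lower, with a median of -0.06. IL18RAP, the accessory chain of the interleukin 18 receptor, was at 0 and 0.0596 CPM in NT and 2.39, 3.72, 3.25 and 3.25 CPM in Doxo+Cyta+DAC. Pooled over libraries the relapse level was 114 times (95% counting interval 20.1 to 4506) that of NT, which held 1 count in all. IL7R, the interleukin 7 receptor, was at 1.85 and 1.97 CPM in NT and 12, 17.6, 16.4 and 13.9 CPM in Doxo+Cyta+DAC (log2 fold change 2.97, SE 0.30, adjusted p = 6.15e-06). CXCR4, which holds blood cells in the marrow, was at 6.18 and 6.38 CPM in NT and 13.6, 21.1, 40.4 and 29.5 CPM in Doxo+Cyta+DAC (2.06, adjusted p = 0.00162), but did not differ by the test from the chemotherapy relapses (0.48, SE 0.29, adjusted p = 0.158). In the JAK-STAT pathway 4 of 30 rose (13.3%) and 6 fell (20%), both below the 25% and 23.8% of all tested genes. JAK2 was at 409 and 442 CPM in NT and 165, 152, 139.9 and 190.4 CPM in Doxo+Cyta+DAC (log2 fold change -1.40, SE 0.21, adjusted p = 0.000145), and SOCS3, the feedback inhibitor of that kinase, was at 6.28 and 5.3 CPM in NT and 16.4, 24.8, 24.4 and 21.5 CPM in Doxo+Cyta+DAC (log2 fold change 1.91, SE 0.23, adjusted p = 2.89e-05). Outside this list, TLR4, a receptor of innate immunity, was at 0.103 and 0.417 CPM in NT and 3.0, 5.37, 2.47 and 2.61 CPM in Doxo+Cyta+DAC (3.70, adjusted p = 0.000112), and the histamine receptor HRH1 was at 0.257 and 0.238 CPM in NT and 5.27, 7.5, 4.62 and 4.67 CPM in Doxo+Cyta+DAC (4.43, adjusted p = 7.6e-06).

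Immediate early genes and targets of p53 rose in part. Of 39 genes of the early response and of ERK feedback 16 rose, 6 past 3-fold, and 4 fell (2 without NT replicate 1). PHLDA1 was at 4.84 and 3.75 CPM in NT and 23.5, 70.6, 42 and 33.7 CPM in Doxo+Cyta+DAC (log2 fold change 3.30, SE 0.38, adjusted p = 1.75e-05), and FOSB, a subunit of AP-1, was at 6.38 and 8.22 CPM in NT and 33.5, 17.4, 42.4 and 35.9 CPM in Doxo+Cyta+DAC (2.15, adjusted p = 7.1e-05). For FOSB the chemotherapy relapses were at 149.9 to 210.1 CPM in Doxo and 17.5 to 19.6 CPM in Doxo+Cyta, so that all 3 Doxo libraries lay above the triple-drug relapses. Of 36 tested p53 targets 13 rose and 8 fell. The study reports a p53 loss-of-function mutation at full allele frequency in all groups of these cells. Whether p53 took part in these changes was not tested. CDKN1A, the p21 inhibitor of the cell cycle, was at 11.1 and 11.4 CPM in NT and 34.5, 91.6, 67.7 and 49.7 CPM in Doxo+Cyta+DAC (log2 fold change 2.44, SE 0.53, adjusted p = 0.00186). Against the chemotherapy relapses, which were at 81.5 to 128 CPM in Doxo and 11.9 to 46 CPM in Doxo+Cyta, it did not pass (0.34, SE 0.34, adjusted p = 0.396). TNFRSF10B, a death receptor, was at 1.6 and 1.97 CPM in NT and 15.3, 31.2, 20.8 and 17.2 CPM in Doxo+Cyta+DAC (3.57, adjusted p = 4.02e-05), and TIGAR, a phosphatase that slows glycolysis, was at 1.13 and 1.01 CPM in NT and 9.62, 15.6, 9.08 and 8.87 CPM in Doxo+Cyta+DAC (3.32, adjusted p = 0.0002). CCNG2, an atypical cyclin, fell from 37.7 and 34.9 CPM to 7.6, 8.6, 7.72 and 8.0 CPM. The BCL2 family of death regulators had 4 higher (2 and 1 without NT replicates 1 and 2) and 5 lower (3 without either NT library or library 32) of 19 tested. Genes of inflammation had 8 of 39 higher (5 without either NT library) and 9 lower, close to the shares of all tested genes. CXCL8, a chemokine for neutrophils, was at 1.39 and 1.37 CPM in NT and 3.06, 8.67, 9.24 and 8.48 CPM in Doxo+Cyta+DAC (2.41, adjusted p = 0.000383), and TNFAIP2 at 145 and 153 CPM in NT and 13.5, 15.1, 24.8 and 24.5 CPM in Doxo+Cyta+DAC (log2 fold change -2.94, SE 0.20, adjusted p = 4.03e-07).

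Drug-efflux and aldehyde dehydrogenase genes, often measured as marks of resistant cells, moved both ways. Of 28 tested ABC transporters 8 rose (28.6%) and 10 fell (35.7%), beside 25% and 23.8% of all tested genes. ABCG2, an efflux pump for several drugs, was at 0.103 and 0.179 CPM in NT and 3.13, 4.82, 2.15 and 1.98 CPM in Doxo+Cyta+DAC (adjusted p = 7.1e-05). With 5 counts in NT the pooled ratio was 21.7 times (95% counting interval 9.12 to 67.5), and the chemotherapy relapses were at 1.01 to 2.3 CPM in Doxo and 1.13 to 1.86 CPM in Doxo+Cyta. ABCA7 and ABCA2, which handle lipids, fell from 168 and 166 CPM to 40.4, 43.1, 31.7 and 47.2 CPM and from 61.4 and 64.9 CPM to 17, 20.4, 17.4 and 19.9 CPM. ABCC3, an exporter of conjugates, was at 5.56 and 7.63 CPM in NT and 2.08, 0.757, 2.73 and 2.3 CPM in Doxo+Cyta+DAC, and ABCB6 did not pass (0.01, adjusted p = 0.937). Of 15 tested aldehyde dehydrogenases 3 rose (1 without either NT library, 5 without library 31) and 6 fell (3 without NT replicate 1 or library 30, 2 without NT replicate 2), with ALDH3B1 at 10.7 and 8.76 CPM in NT and 1.1, 0.963, 1.05 and 2.61 CPM in Doxo+Cyta+DAC (-2.81, adjusted p = 1.34e-05) and ALDH6A1 at 25.2 and 23.1 CPM in NT and 4.23, 5.64, 5.62 and 6.65 CPM in Doxo+Cyta+DAC (-2.13, adjusted p = 2.03e-06). ALDH1L1 was at 10.9 and 12.3 CPM in NT and 0.306, 7.91, 0.0525 and 0.158 CPM in Doxo+Cyta+DAC, so that library 31 was close to NT and the other 3 were far below. Its call (-2.49, adjusted p = 0.0435) was lost in 5 of the 6 fits that left out a library.

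Among receptor tyrosine kinases and adhesion genes more fell than rose, and 0 rose past 3-fold. Of 24 tested kinases 9 fell and 6 rose (1 and 0 without NT replicates 1 and 2): PDGFRB went from 34.5 and 39.2 CPM to 5.94, 6.54, 9.08 and 7.6 CPM (-2.33, adjusted p = 3.3e-07), FLT4 from 55.5 and 59.9 CPM to 14.5, 27, 13.9 and 16.6 CPM, and ERBB3 fell by 2.55. Of 37 tested adhesion and matrix genes 13 fell and 6 rose (1 and 3 without NT replicates 1 and 2). ITGAL, the alpha chain of the leukocyte integrin LFA1, was at 113 and 111 CPM in NT and 24.4, 21.3, 26.6 and 22.5 CPM in Doxo+Cyta+DAC (log2 fold change -2.24, SE 0.18, adjusted p = 1.55e-06), and the laminin chain LAMA5 was at 97.5 and 100 CPM in NT and 27, 25.9, 30.3 and 25.9 CPM in Doxo+Cyta+DAC (-1.85, adjusted p = 7.33e-07). Lysosomal genes had 9 higher (23.7%) and 11 lower (28.9%) of 38, close to the 25% and 23.8% of all tested genes. TFEB, the factor that controls them, was at 5.97 and 5.96 CPM in NT and 1.65, 1.38, 1.78 and 1.43 CPM in Doxo+Cyta+DAC (-1.92, adjusted p = 2.69e-05), with no overlap of the groups. Genes of cholesterol and fatty acid synthesis had 3 higher (9.09%) and 7 lower (21.2%) of 33, both below the shares of all tested genes. Their spread among relapses was wide. DHCR7, the last enzyme of cholesterol synthesis, was at 92.3 and 89.9 CPM in NT and 19.4, 82.6, 39.2 and 26.5 CPM in Doxo+Cyta+DAC (-1.12, adjusted p = 0.0275), a call lost when any library but 31 was left out (0.0538 to 0.112). Without library 31, in which DHCR7 was highest, 14 genes of this list fell, and 3 to 5 fell when another library was left out.

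**Figure D3:**
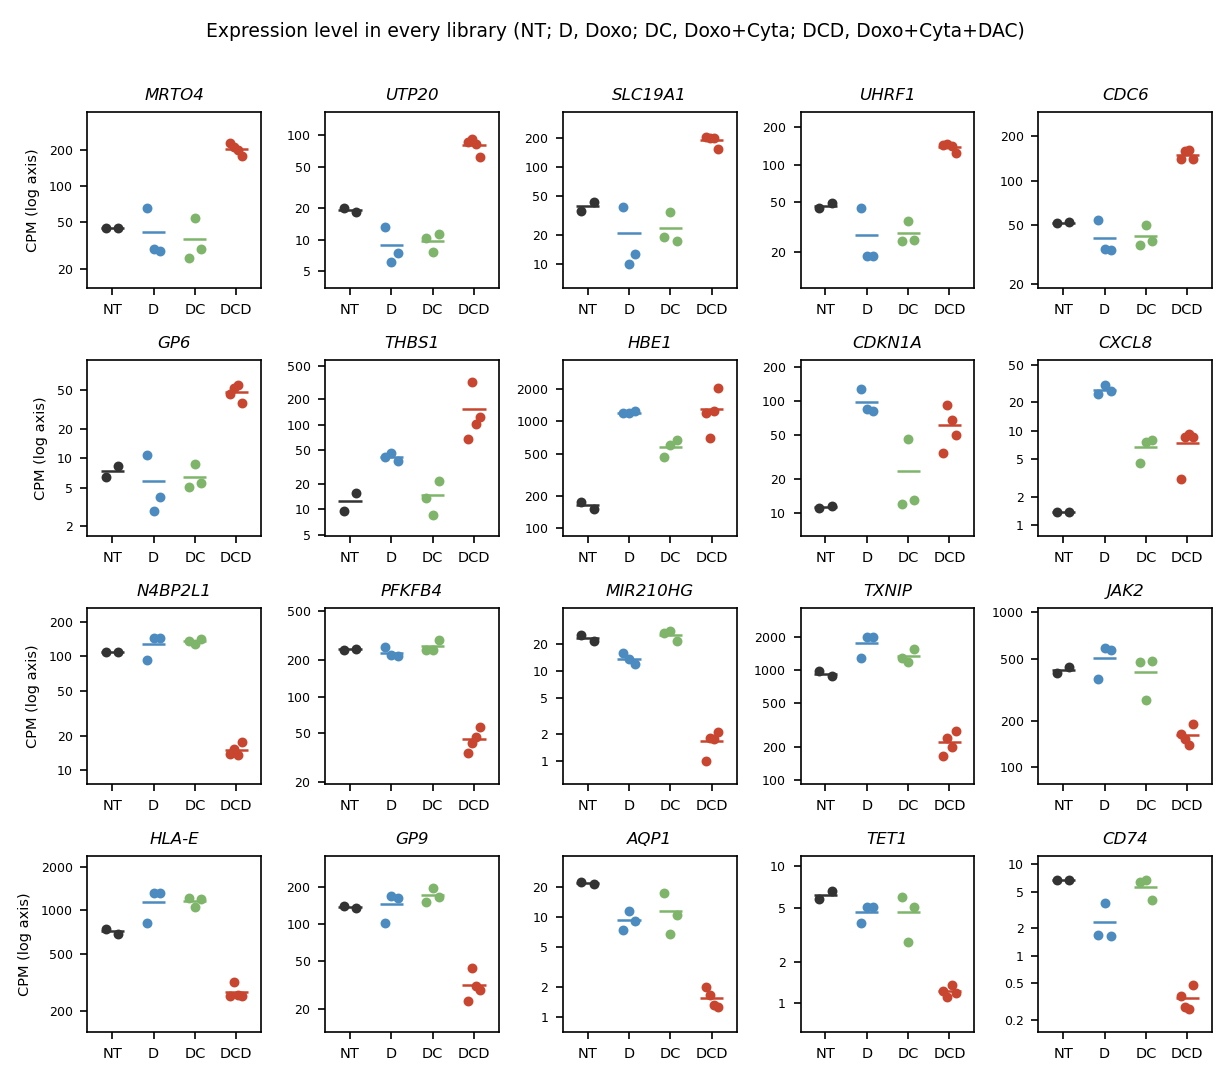
Each point is the level of a gene in 1 library (CPM, log axis, a scale of its own in each panel) and each bar the mean of a group: NT (n = 2), Doxo (D, n = 3), Doxo+Cyta (DC, n = 3) and Doxo+Cyta+DAC (DCD, n = 4). In the panels of the top row the 4 triple-drug relapses lie above all other libraries, in those of the bottom 2 rows below them, and in HBE1, CDKN1A and CXCL8 they overlap with other relapses.

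Several of the largest changes belonged to none of the lists. N4BP2L1, on chromosome 13, was at 109 and 109 CPM in NT and 14, 15.4, 13.6 and 17.6 CPM in Doxo+Cyta+DAC (log2 fold change -2.85, SE 0.16, adjusted p = 1.83e-07). FAM178B was at 27.3 and 25.7 CPM in NT and 0.429, 0.413, 0.472 and 1.74 CPM in Doxo+Cyta+DAC (log2 fold change -5.20, SE 0.33, adjusted p = 3.3e-07). TNS4, a tensin at focal contacts, was at 49.6 and 52.9 CPM in NT and 3.19, 4.68, 2.41 and 4.83 CPM in Doxo+Cyta+DAC (-3.78, adjusted p = 1.55e-06), the phospholipase PLA2G6 at 174 and 176 CPM in NT and 27.5, 30.4, 46.8 and 28 CPM in Doxo+Cyta+DAC (-2.40, adjusted p = 3.91e-06) and the calpain CAPN5 at 207 and 212 CPM in NT and 38.5, 36.1, 49.8 and 54.3 CPM in Doxo+Cyta+DAC (-2.23, adjusted p = 3.3e-07). Standing apart from NT was a condition for naming these 5. In all 5 the relapses also lay below the chemotherapy relapses, where 20.1% of all tested genes lay below the 8 other libraries. SMIM1, the protein of the Vel blood group, fell from 59.1 and 53 CPM to 8.03, 8.19, 10.1 and 12.5 CPM, and APLNR, the apelin receptor, from 57.6 and 49.2 CPM to 5.27, 4.06, 12.2 and 18.5 CPM. SESN3, a sestrin, was at 72.7 and 77.3 CPM in NT and 9.68, 13.1, 10.1 and 19.2 CPM in Doxo+Cyta+DAC, and BTN3A1, a butyrophilin, at 70.8 and 64.7 CPM in NT and 12.2, 17.1, 10.9 and 15.3 CPM in Doxo+Cyta+DAC. Among increases, PPP1R16B was at 10.9 and 15.4 CPM in NT and 45.5, 112, 83 and 68.9 CPM in Doxo+Cyta+DAC (2.56, adjusted p = 0.000163), the coactivator NCOA5 at 9.88 and 12 CPM in NT and 60.0, 46.9, 53.5 and 48.3 CPM in Doxo+Cyta+DAC (2.26, adjusted p = 4.02e-05), the methylosome subunit WDR77 at 35.1 and 37.2 CPM in NT and 165, 132, 169 and 135 CPM in Doxo+Cyta+DAC (2.06, adjusted p = 7.84e-05) and the transcription factor FEV at 17.2 and 14 CPM in NT and 79.2, 50.2, 78.7 and 60.8 CPM in Doxo+Cyta+DAC (2.10, adjusted p = 0.000117).

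Some of the largest fold changes belonged to genes at low level. Where a group held at most 3 counts per library, in 39 of the 338 genes that rose and 57 of the 575 that fell, the size of the change rests on few counts. CXCR5 was at 0.103 and 0.0596 CPM in NT and 1.72, 1.51, 7.61 and 1.35 CPM in Doxo+Cyta+DAC, with library 32 far above the other 3. PPAP2B, a lipid phosphatase, was at 0.0515 and 0.0596 CPM in NT and 0.919, 0.688, 2.62 and 2.06 CPM in Doxo+Cyta+DAC. NAALADL1 fell from 2.62 and 2.74 CPM to 0, 0.138, 0 and 0.0792 CPM. TENM1 was at 0.926 and 1.19 CPM in NT and 0.0613, 0, 0 and 0 CPM in Doxo+Cyta+DAC and 0 to 0.126 CPM in the chemotherapy relapses, and SGCZ and IGLL1, at 2.16 and 1.85 CPM and 3.45 and 2.5 CPM in NT, were at most 0.344 CPM in every relapse of the 3 groups. MRPL23-AS1 fell from 3.5 and 3.1 CPM to 0, 0, 0.0525 and 0.238 CPM, but as an antisense RNA counted without strand it cannot be told apart from its sense partner.

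The 4 relapses lay nearer to each other than to NT, with 1 library somewhat apart. The root-mean-square log2 difference over all tested genes was 0.41 to 0.51 for the 6 pairs of relapses and 0.29 for the 2 NT libraries. Library 31 lay 0.44 from the mean of the other 3, which lay 0.35 to 0.36 from the mean of the rest, and the distance to the NT mean was 0.84 to 0.90 for all 4. Among 12576 genes that averaged 1 CPM or more over these 4 libraries, library 31 was more than 4-fold above the nearest of the others in 5 and below it in 7. These included the cyclin gene CCNA1 and AKAP12, a scaffold of signaling kinases at 4.11, 27.7, 6.09 and 6.57 CPM in the 4 relapses. The same count was 3 and 0 for library 30, 3 and 4 for library 32, and 0 and 0 for library 33. Leaving out library 31 gave 886 genes past the thresholds (332 higher, 554 lower).

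Along the chromosomes, changes in blocks of neighbouring genes set library 31 apart. The genome was divided into windows of 20 megabases, and the median log2 difference from NT was taken over the genes of each of the 145 windows with at least 30 tested genes. Library 31 was at least 0.3 from the nearest other relapse in 5 windows, library 30 in 1, and libraries 32 and 33 in 0. On chromosome 6 from 0 to 20 megabases (67 genes) the medians were -0.63, 0.05, -0.38 and -0.73 in libraries 30 to 33, and -0.70 to -0.33 in the 6 chemotherapy relapses. On chromosome 18 from 40 to 60 megabases (49 genes) they were -0.53, 0.01, -0.42 and -0.34, and from 20 to 40 megabases (43 genes) -0.46, 0.02, -0.47 and -0.29. On chromosome 3 from 100 to 120 megabases (63 genes) they were -0.43, 0.02, -0.41 and -0.34. At the end of chromosome X, from 140 to 160 megabases (85 genes), the medians were 0.48, 0.02, 0.48 and 0.55. In each of these windows library 31 was near NT and the other 3 were shifted in 1 direction. The DNA copy number of these cultures was not analysed here, and its part in the result was not tested. By whole chromosome, the share of genes past the thresholds ran from 3.92% on chromosome 13 to 8.12% on chromosome 6, around the 6.45% of all tested genes.

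Most of the genes that separated the triple-drug relapse from NT also separated it from the relapses without decitabine. Of the 338 genes that rose 301 (89.1%), and of the 575 that fell 542 (94.3%), passed an adjusted p under 0.05 in the same direction against the mean of Doxo and Doxo+Cyta, where 32.7% and 32.6% of all tested genes passed. Both comparisons contain the 4 Doxo+Cyta+DAC libraries and are not independent. Ribosome biogenesis genes showed a median of 1.22 against the chemotherapy relapses (74 higher, 3 lower of 80), replication genes 0.97 (47 higher, 4 lower of 56) and hypoxia and glycolysis genes -0.90 (7 higher, 33 lower of 49). Immediate early genes, with a median of 0.17 against NT, had -0.54 against the chemotherapy relapses (9 higher, 20 lower of 39). The p53 targets had 0.23 against NT and -0.29 against the chemotherapy relapses (10 higher, 16 lower of 36).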

How the data were processed

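RNA of HEL cells was sequenced from TruSeq libraries in 12 samples, and samples were grouped by their labels. The authors filtered the reads, aligned them to GRCh38 with Bowtie2 2.2.8 and counted fragments per gene with featureCounts 1.6.0. The deposited values are raw counts, made without regard to strand and without fragments that align to several places or overlap several genes. A deposited column of gene lengths (another measure, in bases) was not used. Of 26485 genes, 4 lacked a count and were left out with 5 more whose rows exceed 28000 characters and whose last value seems to have lost its last digit (BAG6 held 480 counts in library 33 and 6642 to 8766 in the other 3). Spreadsheet software had turned 4 names into dates.

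The tests came from edgeR 4.0.16 (R 4.3.3): low genes were removed by filterByExpr, TMM set the scaling, and a quasi-likelihood model (glmQLFit, glmQLFTest; two-sided) took in all 12 libraries, so that their spread was shared. Adjusted p is the Benjamini-Hochberg value over all 14159 tested genes, and SE is the size of the log2 fold change over the root of F. CPM use TMM-scaled library sizes, and library distances use log2 CPM with a prior count of 2. Intervals and the 3-count limit cover counting error only. The fold of 3 with adjusted p 0.01 follows the study. The fit was tested on simulated data.

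Named genes were, per direction, the 12 with the largest change at a mean of at least 1 CPM and again at 50 CPM without overlap of the groups, up to 4 per gene list at adjusted p 0.05, those the study names, and those said in the text to be chosen after their values were seen. The members, lists and rules were chosen with earlier results of these data known, and lists were described by counts and medians without a set test. The alternatives were RLE and upper-quartile scaling, no filter, at least 10 counts in every sample, DESeq2 1.42.0, a fit limited to NT and the triple-drug relapses, the thresholds stated in the study's methods, each replicate left out in turn and, chosen after seeing the data, the 5 long rows kept. Some results are not reported here. Labels name no batch. Promoters and miRNAs are RefSeq (GRCh38.p14). Other computations used Python 3.11.15, numpy 2.4.6, pandas 2.3.3, scipy 1.17.1 and matplotlib 3.10.9.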

Additional observations from a re-analysis of the deposited data

Results flagged for a closer look

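For 208 named genes the 4 Doxo+Cyta+DAC libraries were searched for a library far from the other 3, by the gap to the nearest divided by the range. In 20 genes the gap passed the 95% limit for 4 values, and chance alone gives about 1 in 20 genes looked at. That rate does not apply to TENM1, HDAC9 and MIR210, where counts in a single library fix the gap at the full range. The library apart was 30 in 4 genes, 31 in 4, 32 in 5 and 33 in 7.

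Library 30 was high in ERG (31.6 CPM) and COL6A3 (3.68 CPM), low in CXCL8 (3.06 CPM), and alone above 0 counts in TENM1 (0.0613 CPM). COL6A3 was at 3.68, 0.138, 0.105 and 0.396 CPM in the 4 relapses, against a log2 fold change of 4.14. Library 31 was high in AKAP12 (27.7 CPM), ALDH1L1 (7.91 CPM), HLA-E (318 CPM) and TIGAR (15.6 CPM). Library 32 was high in CXCR5 (7.61 CPM) and PLA2G6 (46.8 CPM), low in SAMD9L (3.94 CPM), and alone above 0 counts in HDAC9 (0.157 CPM) and MIR210 (0.0525 CPM).

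Library 33 was high in the globin and heme genes HBB (219 CPM), BLVRB (134 CPM) and FECH (85.4 CPM), in CDC25C (16.7 CPM), FAM178B (1.74 CPM) and ALDH3B1 (2.61 CPM), and low in SLC19A1 (156 CPM). In HBB, BLVRB and FECH its value was nearer to NT than those of the other 3 relapses, at 457 and 403 CPM in NT for HBB, 199 and 180.2 CPM for BLVRB and 114 and 111 CPM for FECH.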

How the results depend on the processing

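No paired analysis was possible because the groups compared share no replicate numbers. The count of 913 genes past 3-fold stayed within 1.5 times under RLE and upper-quartile scaling, no filter, DESeq2, a fit of NT and the triple-drug relapses alone, the thresholds stated in the methods (1320) and the 5 long rows kept (912). It was 485 with at least 10 counts in every sample, where fewer genes were tested (12073), and 571 to 894 when a replicate was left out. The count at adjusted p 0.05 was 4464 to 6595 when a replicate was left out; the lowest values of both came without NT replicate 1. Against the chemotherapy relapses the count was 669 with at least 10 counts in every sample and 1143 to 1386 when a replicate was left out. Of 2450 values of named genes under the alternatives, 2368 kept direction and call, 68 lost the call, 5 gained it and 9 turned direction. Direction turned for ABCB6 (-0.0685 with upper-quartile scaling, -0.0246 without a filter, -0.0253 with at least 10 counts, -0.0221 in the fit of those groups alone, and -0.0287 to 0.113 when a replicate was left out), for HLA-H (-3.08 to 0.34, the latter without NT replicate 2) and for HBG1 (-0.58 to 0.44, the latter without NT replicate 1). The cause was not tested. The list medians moved by less than the SD of the 4 relapses in 401 cases and by more in 55, of which 16 were under upper-quartile scaling. At these depths genes under about 0.2 CPM could not be compared.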

Other observations

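Gene families taken by symbol, chosen after the data were seen, showed further groups that moved in Doxo+Cyta+DAC relative to NT at an adjusted p under 0.05. Of 76 tested genes of mitochondrial ribosomal proteins (MRPL and MRPS) 43 rose and 3 fell, with a median log2 fold change of 0.45. Of 52 proteasome subunits (PSM) 36 rose and 3 fell (median 0.60), of 34 aminoacyl-tRNA synthetases 20 rose and 2 fell (0.57), and of 23 genes of mitochondrial protein import (TIMM and TOMM) 17 rose and 2 fell (0.86). The chaperonin that folds actin and tubulin (CCT) had 8 of 11 genes higher and 1 lower. Host genes of small nucleolar RNAs (SNHG) had 10 of 18 higher and 0 lower, with a median of 0.51.

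Zinc finger genes (ZNF), most of which encode repressors, had 141 of 417 higher and 59 lower, with a median of 0.25. Long intergenic noncoding genes (LINC) had 26 of 170 higher and 48 lower, with a median of -0.21. Of the solute carriers (SLC) 57 of 240 were higher and 59 lower, close to the 25% and 23.8% of all tested genes. Of the 913 genes past 3-fold, 94 belonged to a gene list used here, and 1118 of the 14159 tested genes did.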
